A study of Mus musculus with 8 samples.

Results

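The cytosolic ribosomal protein genes are the genes whose products join ribosomal RNA in the large and small subunits of the ribosome. They were chosen by gene name alone: every gene named Rpl or Rps followed by a number and at most 1 letter, together with the stalk genes Rplp0, Rplp1 and Rplp2, leaving out Rps27a and every name that marks a pseudogene. The rule took 79 of the 37583 genes in the deposited table, 49 of the large and 30 of the small subunit. Of these, 77 passed the filter on low counts and were tested. The remaining pair, Rpl3l and Rpl10l, had at most 7 counts in any library.

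Liver RNA of C57BL6/CBA mice aged 8 months was sequenced in 8 libraries of 3 groups. Of these, 2 libraries (WT) came from untreated wild-type liver. Another 4 (PR-SET7_LOBE) came from liver with the genotype PR-SET7_LX_ALB_CRE, in which Cre recombinase under the albumin promoter acts on Pr-Set7 in hepatocytes. Liver cells in which Cre does not act keep the gene, and the labels do not list them. The meaning of LOBE is not given in the labels. The last 2 (DEN_WT) came from wild-type mice that received diethylnitrosamine (DEN), a liver carcinogen, by injection at day 15, at a labelled 25 ml per kg with no concentration. Pr-Set7 is the enzyme that monomethylates histone H4 at lysine 20. The labels do not say that the replicates come from separate animals, so p-values reflect only sample-to-sample spread, possibly technical.

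Ribosomal protein genes are among the most actively transcribed genes of any cell, and hepatocytes need many ribosomes to make the proteins of blood plasma. Their messages start with an uninterrupted run of pyrimidines, through which growth signals control their translation. These short, abundant messages have also been copied back into the genome many times, which left processed pseudogenes: copies without introns whose sequence can be almost that of the message. A read from a message and a read from such a copy can be hard to tell apart.

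Total counts ran from 7305595 to 16108081 per library, and the TMM scaling factors from 0.674 to 1.48. Setd8, the gene of Pr-Set7, lay between 46.5 and 62.6 CPM (each count divided by the TMM-scaled library total and multiplied up to the usual common total) in the libraries labelled PR-SET7_LOBE and at 51.9 and 56.0 CPM in WT. Its counts cover the whole gene and do not check the deletion. Hepatocyte markers summed to between 45478 and 164848 CPM in the 8 libraries. In bulk tissue, fewer cells of a type and less RNA per cell cannot be told apart.

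Sequences of a gene and of its copy show how close the family's pseudogenes are. Rpl31, Rpl38 and Rpl28 were chosen after their values were seen, each with the copy that held the most counts in DEN_WT. In the deposited mm9 coordinates, Rpl31 lies on the plus strand of chromosome 1 from 39424696 to 39428753. Its copy Gm8759 lies on chromosome 15 from 90594677 to 90595092. Rpl38 lies on chromosome 11 from 114529838 to 114533645, and Rpl38-ps2 on chromosome 6 from 140695440 to 140695730. Rpl28 lies on chromosome 7 from 4744476 to 4746164, and Rpl28-ps1 on chromosome 1 from 129935146 to 129935559. The coding sequences below are from GENCODE M21 (GRCm38), given in lower case, where a capital would mark a base that differs between gene and copy. The first 60 coding bases of Rpl31 and Rpl38 show no such base.
Rpl31: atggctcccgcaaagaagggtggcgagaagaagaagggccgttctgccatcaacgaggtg
Gm8759: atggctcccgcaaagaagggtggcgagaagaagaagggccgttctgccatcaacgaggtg
Rpl38: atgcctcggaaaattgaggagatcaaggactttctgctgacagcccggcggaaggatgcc
Rpl38-ps2: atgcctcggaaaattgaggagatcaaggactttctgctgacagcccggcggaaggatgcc

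The whole coding sequence was identical between gene and copy for Rpl31 (375 bases), Rpl38 (210 bases) and Rpl28 (411 bases). For these genes no read that lies within the coding sequence can be assigned to gene or copy by its letters. The handling of reads with several hits is not given in the sources used here. In all, 906 pseudogenes in the table were matched to a member, 809 of them held at least 1 count, and 74 members had at least 1 such copy. Rpl7a had the most copies, with 65, followed by Rpl21 with 59 and Rps2 with 56. No copy was annotated for Rpl24, Rpl39l, Rpl3l, Rpl4 and Rpl8.

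The family took 1.18% and 0.989% of all counts in the WT libraries. Its share was 1.54%, 2.01%, 1.67% and 1.34% in PR-SET7_LOBE but 0.811% and 0.795% in DEN_WT. Both DEN_WT libraries lay below and all 4 PR-SET7_LOBE libraries above the WT libraries. After TMM scaling, the summed level was 15471 and 14684 CPM in WT. It was 17615, 19433, 11307 and 10862 CPM in the PR-SET7_LOBE libraries, compared with 7271 and 7584 CPM in those of DEN_WT. On that scale the PR-SET7_LOBE libraries lay on both sides of WT, and DEN_WT remained below all the others.

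Pseudogene copies of the family took 0.0943% and 0.195% of all WT counts, and between 0.0878% and 0.191% of those of PR-SET7_LOBE. Their share was 0.363% and 0.499% in DEN_WT. Both DEN_WT libraries lay above the other 6. Genes and copies together took 1.27% and 1.18% of WT counts. They took 1.63%, 2.20%, 1.78% and 1.502% of PR-SET7_LOBE counts, compared with 1.17% and 1.29% of those of DEN_WT. The summed share of DEN_WT thus overlapped that of WT once the copies were counted. Of the family's counts, the copies held 7.43% and 16.5% (WT), between 5.39% and 10.8% (PR-SET7_LOBE), and 30.9% and 38.6% (DEN_WT). Pseudogenes that are no copies of the family also held more of the counts in DEN_WT, at 1.90% and 2.15%, against 0.912% to 1.39% in the other libraries.

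**Figure D1:**
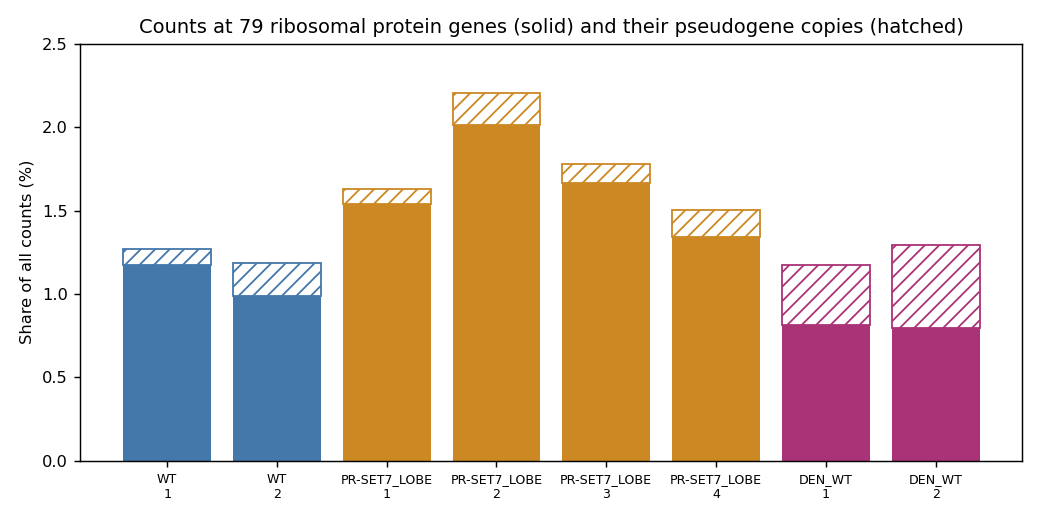
Share of all counts (%) at the 79 ribosomal protein genes (solid) and at their pseudogene copies (hatched, stacked on top), 1 bar per library, coloured by group. The solid bars of DEN_WT (0.811% and 0.795%) are the lowest, while the full bars of DEN_WT (1.17% and 1.29%) are close to those of WT (1.27% and 1.18%).

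Levels within the family spread widely. Per kilobase of transcript (the median length of a gene's annotated transcripts), the mean level over the 8 libraries was highest for the stalk gene Rplp1, at 2887 CPM per kilobase. Rpl10 followed at 861, Rps2 at 760 and Rps18 at 642 CPM per kilobase. The lowest tested members were Rpl39l at 1.06, Rpl24 at 9.67 and Rps27 at 15.7 CPM per kilobase. The value of Rpl24 was divided by a transcript length of 4920 bases, so it depends on the annotation. Rpl3l, a paralog of Rpl3 known from heart and skeletal muscle, and Rpl10l, a paralog of Rpl10 known from testis, were at 0.211 and 0.101 CPM per kilobase.

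In DEN_WT against WT, 16 of the 77 tested genes fell and none rose in edgeR's quasi-likelihood test at an adjusted p under 0.05. Among all 17362 tested genes, 4.54% were called lower and 5.18% higher, 9.73% in all. Of members above WT, 1 had an unadjusted p under 0.05, and DESeq2 called none higher and voom 1. The median log2 fold change was -1.37 over the family and 0.06 over all genes, and 69 of the 77 members lay below 0. Both DEN_WT libraries lay below both WT libraries for 62 of 77 members and above them for 5, against 33.3% and 37.8% of all genes. In the large subunit 10 of 47 members fell, with a median log2 fold change of -1.25, and in the small subunit 6 of 30, with a median of -1.45. These counts rest on where the reads were counted, as the values for the copies show below, and on both DEN_WT libraries. Without a DEN_WT or WT library that group keeps 1, and calls fell among all genes as well as in the family. The family median was -1.35 and -1.34 without DEN_WT replicate 1 and 2. It was -1.17 and -1.09 without WT replicate 1 and 2. Leaving out PR-SET7_LOBE replicate 1 gave 36 calls, where 11.9% of all genes were called lower. That library is in neither group but shares the filter, scaling and spread, and the cause was not tested.

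**Figure D2:**
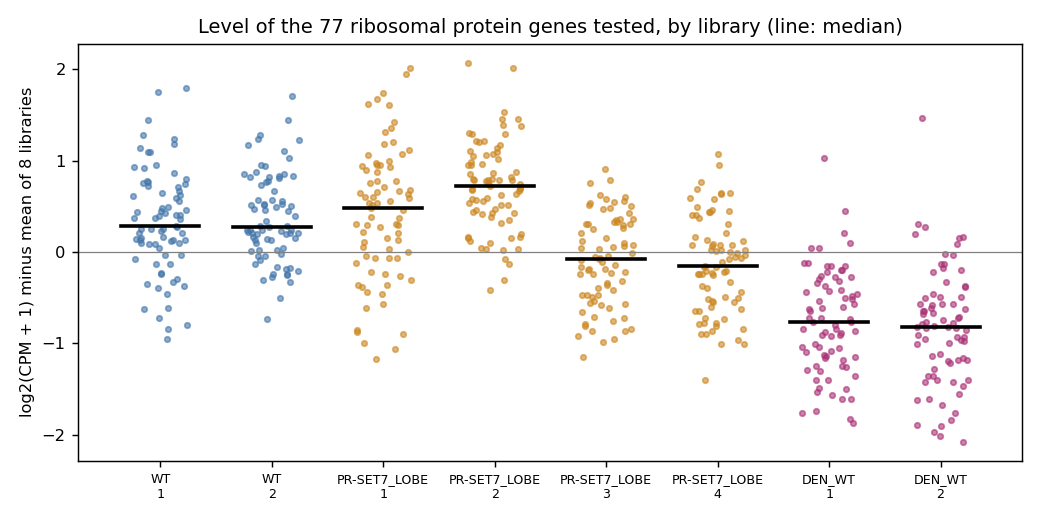
Level of each of the 77 tested genes as log2(CPM + 1) minus its mean over the 8 libraries (points), by library, with the median as a line. The medians of DEN_WT are -0.77 and -0.82, below the other 6 libraries, which lie between -0.16 and 0.72.

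Among the large subunit genes, Rpl31, which sits beside the exit of the peptide tunnel, had the smallest p. It had 25.6 and 32.1 CPM in WT, 28.1, 31.6, 22.7 and 25.2 CPM in PR-SET7_LOBE, and 4.69 and 5.56 CPM in DEN_WT. Both DEN_WT libraries lay far below the other 6, which overlapped one another. The fall was 5.61-fold (log2 fold change -2.49, SE 0.40, adjusted p = 0.00421). Rpl31 overlaps Tbc1d8 on the opposite strand, and whether the counting used strand is not given in the sources used here.

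Rpl11, which binds 5S ribosomal RNA together with Rpl5 and can hold back the p53 inhibitor Mdm2, had 257 and 208 CPM in WT. It had 217, 195, 110 and 99.8 CPM in PR-SET7_LOBE, and 48.2 and 26.8 CPM in DEN_WT. Of the PR-SET7_LOBE libraries, replicate 1 lay among WT and the other 3 between WT and DEN_WT. The fall in DEN_WT was 6.20-fold (log2 fold change -2.63, SE 0.54, adjusted p = 0.0141). Its partner Rpl5 had 109 and 144 CPM in WT and 110 and 101 CPM in DEN_WT, with overlapping groups (log2 fold change -0.26, SE 0.61, adjusted p = 0.808). Copies held 50.9% and 59.3% of the counts of Rpl5 in DEN_WT. With copies added its log2 fold change was 0.82 (edgeR adjusted p = 0.413).

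Rpl3, which lies at the peptidyl transferase centre, had 212 and 347 CPM in WT and 54.7 and 42.4 CPM in DEN_WT. The groups did not overlap, and the fall was 5.75-fold (log2 fold change -2.52, SE 0.55, adjusted p = 0.0175). Rpl19, part of a bridge between the subunits, went from 288 and 354 CPM to 76.1 and 65.7 CPM (log2 fold change -2.18, SE 0.47, adjusted p = 0.0165). Rpl38, known for its part in the translation of Hox messages, went from 24.4 and 48.0 CPM to 4.69 and 4.33 CPM (log2 fold change -3.002, SE 0.79, adjusted p = 0.0376). The libraries of PR-SET7_LOBE held 34.1, 83.5, 20.7 and 13.8 CPM of Rpl38, so they spread from above WT to below it.

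Rpl36 had the lowest fitted value of the called genes, at 124 and 56.5 CPM in WT and 9.21 and 7.95 CPM in DEN_WT (log2 fold change -3.40, SE 0.90, adjusted p = 0.0390). Its PR-SET7_LOBE libraries held 138, 64.9, 19.9 and 22.0 CPM, a spread of a similar kind. Rpl28 went from 148 and 110 CPM to 17.9 and 19.4 CPM (log2 fold change -2.78, SE 0.72, adjusted p = 0.0347). Rpl21 and Rpl37, also of the large subunit, had log2 fold changes of -1.98 (SE 0.46, adjusted p = 0.0229) and -2.50 (SE 0.58, adjusted p = 0.0246). Rpl35 completed the called large subunit genes, and overlaps Wdr38 on the opposite strand.

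In the small subunit, Rps3a had 119 and 122 CPM in WT. Its 4 PR-SET7_LOBE libraries held 116, 214, 126 and 135 CPM, while DEN_WT held 41.3 and 38.2 CPM. The DEN_WT libraries lay below all the others, and PR-SET7_LOBE overlapped WT. The fall was 3.03-fold (log2 fold change -1.60, SE 0.44, adjusted p = 0.0429), and the copy share of Rps3a in DEN_WT was 60.2% and 66.9%. Rps10, Rps12, Rps23 and Rps28 also fell, by log2 fold changes from -2.26 (Rps12) to -1.44 (Rps23). Rps10 overlaps Gm15420 and Rps28 overlaps Kank3 on the opposite strand.

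The stalk proteins Rplp0, Rplp1 and Rplp2, which recruit elongation factors to the ribosome, did not pass the test in this comparison. Rplp1 had 1543 and 2029 CPM in WT, 2359, 3100, 1080 and 426 CPM in PR-SET7_LOBE, and 497 and 493 CPM in DEN_WT (log2 fold change -1.85, SE 0.79, adjusted p = 0.153). Both DEN_WT libraries lay below WT, while PR-SET7_LOBE spread from above WT to below DEN_WT. Rplp0 had 515 and 458 CPM in WT and 161 and 164 CPM in DEN_WT (log2 fold change -1.59, SE 0.62, adjusted p = 0.126). Rplp2 had 79.2 and 96.4 CPM in WT and 40.4 and 29.2 CPM in DEN_WT (log2 fold change -1.33, SE 0.40, adjusted p = 0.0596). The groups did not overlap for any of the 3 genes.

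A few members lay above WT in DEN_WT, none of them called. Rps27l, a paralog of Rps27 known as a target of p53, had 7.18 and 17.1 CPM in WT and 24.7 and 33.8 CPM in DEN_WT (log2 fold change 1.27, SE 0.51, adjusted p = 0.132). Its PR-SET7_LOBE libraries held 5.35, 10.5, 7.24 and 7.20 CPM, all below the DEN_WT libraries. Rpl30 (0.76), Rpl7 (0.59), Rps24 (0.57) and Rps4x (0.34) were the other members whose DEN_WT libraries both lay above WT, in log2 fold change.

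Rps27 itself had 9.86 and 11.1 CPM in WT, 4.13, 10.2, 3.99 and 4.55 CPM in PR-SET7_LOBE, and 3.90 and 2.38 CPM in DEN_WT (log2 fold change of DEN_WT against WT -1.73, SE 0.61, adjusted p = 0.0942). The paralogs thus lay on opposite sides of WT, although neither passed the test and their difference was not tested. With an offset for GC content and length per library both lay below WT, Rps27l at -0.27 and Rps27 at -2.44. Rps27 lies on mm9 chromosome 3 from 90016593 to 90017573, and Rps27l on chromosome 9 from 66793893 to 66797323. They are printed to show that, unlike a gene and its copy, this pair can be told apart by sequence. Their coding sequences were 76.5% identical over 226 aligned bases. In the stretch from coding base 8 to 67 of Rps27, from GENCODE M21, 19 of 60 bases differed and stand in capitals.
Rps27: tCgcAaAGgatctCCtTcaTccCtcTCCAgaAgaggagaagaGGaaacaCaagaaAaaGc
Rps27l: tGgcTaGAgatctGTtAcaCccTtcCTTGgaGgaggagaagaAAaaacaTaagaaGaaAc

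Among the other paralog pairs, Rpl39 had 28.6 and 65.8 CPM in WT and 60.4 and 51.4 CPM in DEN_WT, with overlapping groups (log2 fold change 0.24, SE 0.61, adjusted p = 0.821). Rpl39l, known from testis, had 2 and 14 counts in WT and 0 in both DEN_WT libraries, where a count of 0 allows up to 3 counts. No fold is given for it. Rpl10, the last protein to join the large subunit, had 495 and 764 CPM in WT and 457 and 644 CPM in DEN_WT, again with overlapping groups (log2 fold change -0.19, SE 0.62, adjusted p = 0.863).

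Counts at the copies moved the other way in the same libraries. For each member, the copy share is the counts at its copies as a percentage of the counts at gene and copies. The median copy share over the 79 genes was 3.44% and 11.1% in the WT libraries. It was 4.14%, 5.62%, 4.58% and 9.81% in PR-SET7_LOBE but 31.9% and 39.5% in DEN_WT. For 62 of 79 members the share was above both WT libraries in both DEN_WT libraries, and for 57 it was above all the other 6. Copies held over 50% of a gene's counts for 26 and 33 members in DEN_WT, and for 2 to 5 members in any other library. Of the 294 copies that were tested, 47 rose and 10 fell in DEN_WT against WT, where 5.18% of all genes rose and 4.54% fell. With all pseudogenes left out, in the family or not, 2.42% of the genes rose and 3.94% fell. Whether the copies differ from other pseudogenes in this was not tested.

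**Figure D3:**
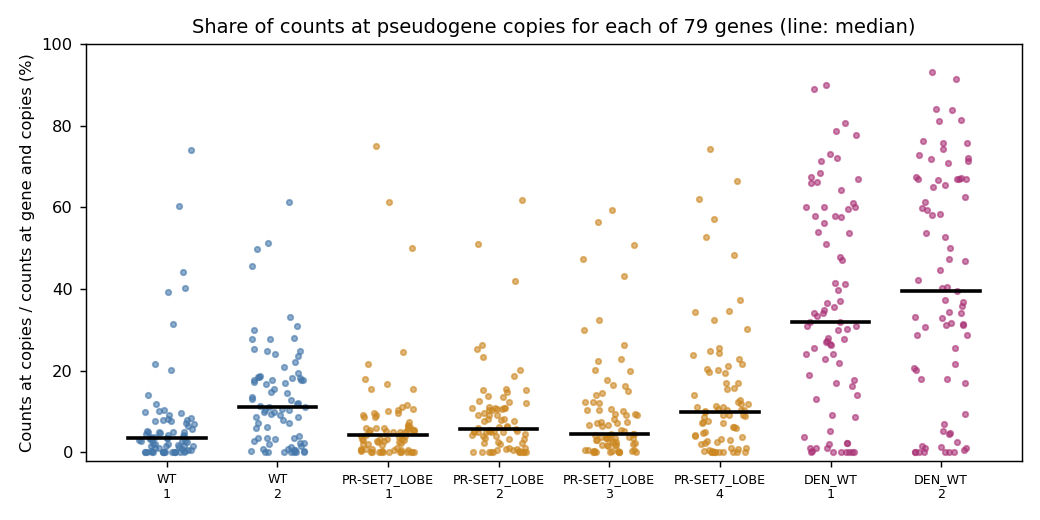
Copy share of each of the 79 genes (counts at pseudogene copies as % of counts at gene and copies; points), by library, with the median as a line. The medians of DEN_WT are 31.9% and 39.5%, against 3.44% to 11.1% in the other 6 libraries, and a group of genes stays near 0% in DEN_WT as well.

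Rpl31 had a copy share of 6.97% and 24.0% in WT, and of 80.7% and 81.4% in DEN_WT. Its identical copy Gm8759 had 0.574 and 2.49 CPM in WT, 1.03, 1.53, 1.49 and 3.83 CPM in PR-SET7_LOBE, and 12.1 and 17.4 CPM in DEN_WT (log2 fold change of DEN_WT against WT 3.26, SE 0.82, adjusted p = 0.0325). The copy rose in the libraries in which the gene fell. Rpl38-ps2 rose from 0.191 and 1.75 CPM to 24.5 and 27.8 CPM (log2 fold change 4.73, SE 0.97, adjusted p = 0.0136), and the copy share of Rpl38 went from 1.54% and 7.295% to 89.0% and 91.4%. Rpl28-ps1 rose from 2.30 and 8.21 CPM to 38.6 and 74.2 CPM (log2 fold change 3.42, SE 0.72, adjusted p = 0.0153).

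Among the copies with the most counts in all libraries together, Gm17511, a copy of Rplp1 with 95.03% identity, fell from 80.7 and 530 CPM in WT to 10.9 and 12.4 CPM in DEN_WT (log2 fold change -4.71, SE 1.24, adjusted p = 0.0386). Rps25-ps1 had 169 and 61.9 CPM in WT and 82.1 and 73.7 CPM in DEN_WT, with overlapping groups (log2 fold change -0.57, SE 0.65, adjusted p = 0.584).

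When the counts of the copies were added to their gene before the fit, none of the 77 members was called in DEN_WT against WT by edgeR, and 15 had an unadjusted p under 0.05. The median log2 fold change was -0.52, and 56 members lay below 0. Rpl31 moved from -2.49 to -0.36 (adjusted p = 0.570), Rpl28 from -2.78 to -0.50 (adjusted p = 0.619), and Rpl38 from -3.002 to 0.28 (adjusted p = 0.824). Rpl11 and Rpl36 kept the lower side, at -1.36 (adjusted p = 0.0851) and -1.68 (adjusted p = 0.106). The summed level of genes and copies was 16712 and 17580 CPM in WT and 10523 and 12343 CPM in DEN_WT, so with TMM scaling the DEN_WT libraries remained below WT. With total counts as the only scaling, an alternative for copies chosen after seeing the data, the median log2 fold change was 0.068 and 1 member, Rps27l, was called higher.

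For 16 tested members the copy share was under 10% in both DEN_WT libraries, a threshold chosen after seeing the data, so that adding copies could move them little. Their median log2 fold change at the gene was -1.39, all 16 lay below 0, and both DEN_WT libraries lay below WT for 15. Only Rps23, a protein of the decoding centre, was called among them. It had 60.2 and 57.6 CPM in WT and 20.8 and 22.5 CPM in DEN_WT (log2 fold change -1.44, SE 0.40, adjusted p = 0.0454), and -1.36 with copies (adjusted p = 0.0510). The other 61 members had a median of -1.37 at the gene and included 15 of the 16 called genes. The 4 tested members without any annotated copy, Rpl24, Rpl39l, Rpl4 and Rpl8, had a median of -1.12, and none of them was called. That median includes Rpl39l, for which no fold is given. Rpl24 was at -1.44, Rpl8 at -0.81 and Rpl4 at -0.53.

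Rps19, mutated in Diamond-Blackfan anaemia, shows the level of a member with a low copy share. It had 269 and 278 CPM in WT, 440, 587, 184 and 187 CPM in PR-SET7_LOBE, and 76.1 and 56.1 CPM in DEN_WT (log2 fold change of DEN_WT against WT -2.05, SE 0.62, adjusted p = 0.0607). Its copy share was 9.09% and 17.6% in WT and 8.71% and 9.42% in DEN_WT, and with copies the log2 fold change was -2.12 (adjusted p = 0.0575). The DEN_WT libraries lay below all others by either count. Rpl8, which has no annotated copy, had 414 and 370 CPM in WT and 226 and 223 CPM in DEN_WT (log2 fold change -0.81, SE 0.61, adjusted p = 0.402).

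**Figure D4:**
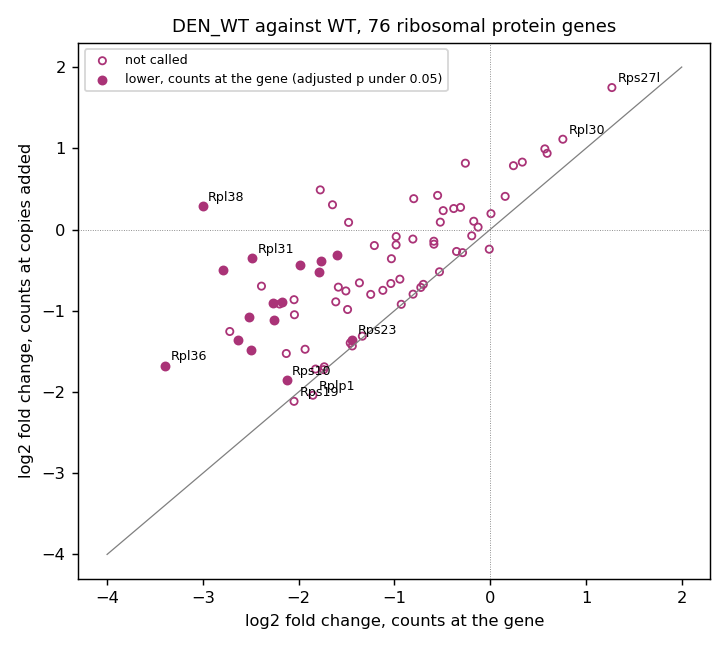
Log2 fold change of DEN_WT against WT for 76 tested genes, with the counts at the gene alone (x) and with the counts at pseudogene copies added (y). Filled points are the 16 genes called at the gene, the line marks equal values, and Rpl39l, at 0 counts in DEN_WT, is not drawn. Rpl38 moves from -3.002 to 0.28, while Rps19, Rplp1 and Rps23 stay near the line.

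In PR-SET7_LOBE against WT, 0.15% of all 17362 tested genes were called higher and 0.0979% lower, and 2987 had an unadjusted p under 0.05. No member passed the test, and 3 members had an unadjusted p under 0.05. DESeq2 and voom also called none. The median log2 fold change was -0.08 over the family and 0.11 over all genes, with 46 members below and 31 above 0. All 4 PR-SET7_LOBE libraries lay above both WT libraries for 2 members, Rpl36a and Rps6, and below them for 2, Rpl22 and Rps23, against 11.6% and 10.5% of all genes. Without PR-SET7_LOBE replicate 1, Rpl30, Rpl7 and Rps4x were called higher, in a fit that called 7.41% of all genes higher and 6.54% lower.

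The members with the highest values were Rpl7, a scaffold of the large subunit, Rps24, Rpl30 and Rps4x. Rpl7 had 107 and 99.3 CPM in WT and 89.9, 286, 240 and 347 CPM in PR-SET7_LOBE (log2 fold change 1.22, SE 0.52, adjusted p = 0.267). Replicate 1 lay below WT and the other 3 replicates far above it. Rpl30 had 23.6 and 29.2 CPM in WT and 27.9, 57.7, 72.7 and 57.7 CPM in PR-SET7_LOBE (log2 fold change 1.03, SE 0.43, adjusted p = 0.264). Rps4x had 115 and 161 CPM in WT and 91.0, 387, 290 and 298 CPM in PR-SET7_LOBE (log2 fold change 0.95, SE 0.53, adjusted p = 0.367). Replicate 1 again lay with WT or below it.

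Rps6, the substrate of S6 kinase, had 201 and 191 CPM in WT and 229, 364, 312 and 333 CPM in PR-SET7_LOBE. All 4 libraries lay above WT, though the difference did not pass the test (log2 fold change 0.66, SE 0.38, adjusted p = 0.372). At the other end, Rpl32 had 123 and 370 CPM in WT and 157, 125, 94.97 and 55.7 CPM in PR-SET7_LOBE (log2 fold change -1.19, SE 0.50, adjusted p = 0.265). Its value rested on WT replicate 2: without that library the log2 fold change was -0.11. Rps27, Rps29 and Rps27l followed with log2 fold changes of -0.87, -0.69 and -0.68.

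Base composition moved with the fold changes. Over the 77 members, the log2 fold change correlated with transcript GC content at r = -0.36, a description across genes that share the same libraries. Rpl7, Rps24, Rpl30 and Rps4x have GC contents of 47.7%, 46.6%, 47.9% and 48.5%, below the family median of 51.8%. The 38 members above that median had a median log2 fold change of -0.19, and the 39 at or below it 0.06. By library, the level of the members correlated with GC content at r = 0.596 and 0.0895 in WT. The values of PR-SET7_LOBE were 0.607, -0.0672, -0.400 and -0.480, while DEN_WT had -0.249 and -0.285. Over all genes tested, the same correlation was 0.318 and 0.200 (WT), 0.624, -0.0409, -0.285 and -0.232 (PR-SET7_LOBE), and -0.300 and -0.266 (DEN_WT), so it was not limited to the family. In DEN_WT against WT, the members' log2 fold change correlated with GC content at r = -0.26, with medians of -1.72 above and -1.04 at or below the median GC content. With a per-library offset for GC content and length, the correlation in PR-SET7_LOBE against WT was -0.18 and still no member was called. In DEN_WT against WT it was -0.01 with the offset, where 34 members and 7.08% of all genes were called lower. The part of base composition in these values was not tested further.

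**Figure D5:**
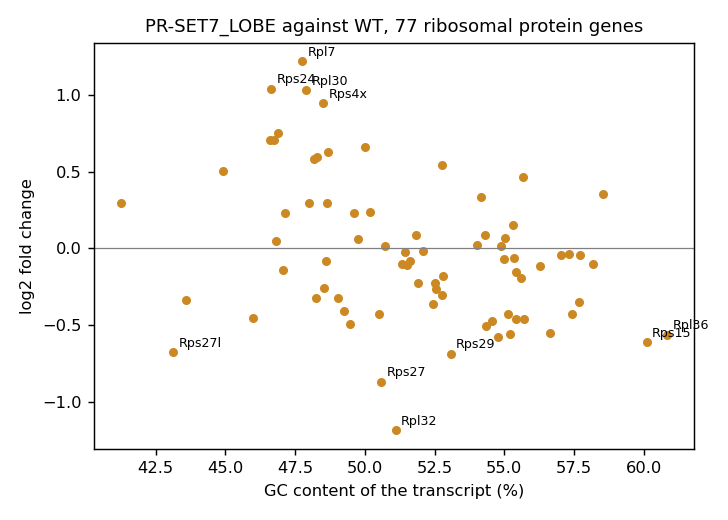
Log2 fold change of PR-SET7_LOBE against WT for the 77 tested genes (y) against the GC content of the transcript in % (x), 1 point per gene. Rpl7, Rps24, Rpl30 and Rps4x, the highest at 0.95 to 1.22, have GC contents from 46.6% to 48.5%, and the lowest, Rpl32 at -1.19, lies near the median GC content of 51.8%.

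In PR-SET7_LOBE against DEN_WT, 15 members were higher and 1 was lower, where 4.82% and 6.26% of all genes were called. The median log2 fold change was 1.17 over the family and 0.18 over all genes. All PR-SET7_LOBE libraries lay above both DEN_WT libraries for 48 members and below them for 1, against 19.3% and 21.2% of all genes. This comparison shares the DEN_WT libraries with the one above and is not independent of it. Without DEN_WT replicate 1 or 2 that group keeps 1 library, and calls fell among all genes as well as in the family. The family median was then 1.23 and 1.12. With copies added, the median was 0.37, Rps19 was higher (log2 fold change 2.39, adjusted p = 0.0254) and Rps27l lower (-2.42, adjusted p = 0.00465).

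Rpl31 was higher by 2.39 on the log2 scale at the gene (SE 0.37, adjusted p = 0.00242) and by 0.25 with copies (adjusted p = 0.671). Rpl17 was 6.96-fold higher in PR-SET7_LOBE, at 46.8, 135, 39.6 and 30.8 CPM against 10.4 and 7.68 CPM (log2 fold change 2.80, SE 0.64, adjusted p = 0.0178). Of its counts in DEN_WT, 57.7% and 72.1% lay at copies. Rps3a, Rpl18 and Rplp2 were also higher, with log2 fold changes of 1.89, 2.00 and 1.27. The call for Rplp2 (adjusted p = 0.0476) was lost in 15 of 23 alternatives, with adjusted p from 0.00326 to 0.539 over all of them. Rps27l was the member called lower, 3.86-fold (log2 fold change -1.95, SE 0.42, adjusted p = 0.0131). With the offset for GC content and length it was not called (-0.60, adjusted p = 0.279). Its copies held 24.2% and 31.7% of its counts in DEN_WT and at most 4.82% elsewhere.

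Most members moved together across the 8 libraries. The log2 CPM of a member correlated with the mean of the other members at a median r of 0.78, over libraries that share groups, depth and composition, and 63 of 77 members lay above 0.5. Rps28 had the highest value (0.996), and Rps27l (-0.67), Rpl30 (-0.29) and Rps2 (-0.18) the lowest. Outside the family, the genes whose log2 CPM was most like the family mean over the 8 libraries, of 17285 compared, were Rpsa (r = 0.992), Gm17565 (0.989), Pfdn5 (0.987), Ercc3 (0.986) and Ccdc3 (0.984). Rpsa encodes a small subunit protein whose name the rule does not take. It had 687 and 830 CPM in WT, 826, 1282, 349 and 332 CPM in PR-SET7_LOBE, and 173 and 161 CPM in DEN_WT.

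Other genes of translation were read from fixed lists. Of 10 tested ribosomal or ribosome-like genes outside the rule, such as Rpsa and Fau, 1 rose in DEN_WT against WT and none fell (median log2 fold change -0.16). The riser was Rsl1d1, at 13.3 ± 0.247 CPM in WT and 50.5 ± 3.79 CPM in DEN_WT (SD, n = 2 each; log2 fold change 1.93, edgeR adjusted p = 0.0371). Fau, whose product includes the small subunit protein S30, did not pass the test (log2 fold change -2.99, SE 0.88, adjusted p = 0.0552). None of 40 translation factors was called in any comparison by edgeR's test, and their median in DEN_WT against WT was -0.16. At an unadjusted p under 0.05 there were 14 of the 40 in that comparison, and 5016 of all 17362 tested genes. DESeq2 called 8 of the 40 and voom 19. Of all genes, DESeq2 called 10.5% higher and 7.57% lower there, and voom 19.0% and 17.5%. The factors with the smallest p were Eef1d and Eif3i, both at a log2 fold change of -1.48 (edgeR adjusted p = 0.0541 and 0.0672).

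Of 52 ribosome biogenesis genes, 2 rose and 1 fell in DEN_WT against WT by edgeR, where 9.73% of all genes were called, and the median was -0.01. DESeq2 called 7 of them and voom 17. Of all genes in this comparison, DESeq2 called 10.5% higher and 7.57% lower, and voom 19.0% and 17.5%. The same shares stand beside the DESeq2 and voom counts of the next 3 lists. Nop58, a core protein of box C/D particles, rose from 1.54 to 21.9 CPM (log2 fold change 3.82, SE 0.95, adjusted p = 0.0307), and Nmd3, the export adaptor of the large subunit, rose as well (2.23 on the log2 scale, adjusted p = 0.0481). Fbl, the methylase fibrillarin of the same particles as Nop58, fell from 31.4 to 4.47 CPM (log2 fold change -2.81, SE 0.57, adjusted p = 0.0127). Of 75 mitochondrial ribosomal protein genes, 1 fell, Mrpl12 (log2 fold change -2.85, adjusted p = 0.0305), with a median of -0.44, while DESeq2 called 4 and voom 22. Of 22 growth regulators, 1 rose, Rheb, which activates mTOR complex 1 (log2 fold change 1.59, adjusted p = 0.0364), while DESeq2 called 2 and voom 9. Of 8 snoRNA host genes, 1 fell, Snhg11 (log2 fold change -1.77, adjusted p = 0.0323), while the other 7 lay above 0 and the median was 1.54. DESeq2 called 4 of the 8 and voom 7. In PR-SET7_LOBE against WT, edgeR called no gene of these lists. The most with an unadjusted p under 0.05 were 9 of the 52 biogenesis genes, where 2987 of all 17362 tested genes had one. Among the 52, DESeq2 called 2 and voom 1. Of all genes, DESeq2 called 3.82% higher and 1.52% lower there, and voom 0.766% and 1.46%. The 8 snoRNA host genes all lay above 0 there as well (median log2 fold change 1.19, DESeq2 1 called, voom none).

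Sums of several cell type markers in DEN_WT lay outside those of WT, and some did so in PR-SET7_LOBE too. Endothelial markers overlapped, at 224 and 226 CPM in DEN_WT and 268 and 203 CPM in WT. Macrophage markers also overlapped, at 361 and 251 CPM in DEN_WT and 1120 and 335 CPM in WT, with none called in either list. T and NK cell markers summed to 2.92 and 3.62 CPM in DEN_WT against 17.0 and 15.6 CPM in WT, and B cell markers to 5.05 and 1.94 CPM against 27.5 and 33.5 CPM. Cd3g was at 0 in WT, and 1 of 7 tested T and NK cell markers and 1 of 5 B cell markers were called lower. Among all genes in DEN_WT against WT, 4.54% were called lower and 5.18% higher. Those shares stand beside all marker counts of that comparison. Ductal markers summed to 399 and 697 CPM in DEN_WT, to 29.6 and 19.0 CPM in WT and to between 100.2 and 271 CPM in PR-SET7_LOBE. Against WT, 1 of 6 was called higher in DEN_WT and 1 in PR-SET7_LOBE, where 5.18% and 0.15% of all genes were called higher. Stellate markers summed to 319 and 149 CPM in DEN_WT against 64.0 and 85.2 CPM in WT, and erythroid markers to 762 and 1017 CPM against 2671 and 1741 CPM, with none called in either list. In PR-SET7_LOBE stellate markers summed to between 116 and 174 CPM, and erythroid markers to between 302 and 1219 CPM. Of 8 hepatocyte markers 1 was called lower in DEN_WT, with sums of 123511 and 156953 CPM against 109799 and 144388 CPM in WT. Of 6 proliferation markers, 4 were called higher in DEN_WT, and the 6 summed to 30.7 and 25.0 CPM against 8.13 and 7.28 CPM in WT. In PR-SET7_LOBE the 6 summed to between 18.4 and 51.0 CPM, with none called against WT. The part of these cells in the ribosomal protein values was not tested.

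A feature known from this family, which the rule did not use, is the pyrimidine run at the start of the message. RefSeq start windows (GRCm38.p6) were found for 59 members. Within 40 bases around the annotated start, a run of at least 8 pyrimidines (C or T) on the sense strand was found for 27 of 59 members (45.8%), against 15.9% of 27025 promoters. On the antisense strand the shares were 6.78% and 17.3%. Among members that fell in DEN_WT against WT, 6 of 11 had such a run, and among the other tested members 21 of 46. The windows of Rpl28 and Rpl38, which fell, and of the paralogs Rps27 and Rps27l are printed with the run in capitals. They lie at chr7:4792950-4792979 (plus strand), chr11:114668565-114668594 (plus), chr3:90213634-90213663 (minus) and chr9:66946071-66946100 (plus) in GRCm38.p6.
Rpl28: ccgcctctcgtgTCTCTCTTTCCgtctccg
Rpl38: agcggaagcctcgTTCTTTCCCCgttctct
Rps27: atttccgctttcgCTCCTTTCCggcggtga
Rps27l: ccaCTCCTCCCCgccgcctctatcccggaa

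The run began 3 bases before the annotated start in Rpl28, at 2 bases before it in Rpl38 and Rps27, and 12 bases before it in Rps27l. Its length was 11, 10, 9 and 9 bases, so the run of Rps27l ended before the annotated start. A run in this window is a description of the letters and shows nothing about translation, which the libraries did not measure.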

How the data were processed

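Messenger RNA from liver was sequenced on an Ion Proton, per the labels' protocols. The authors deposited raw read counts per Ensembl gene for 8 libraries, without units of length or depth. The submitters' processing notes name TopHat2 2.0.9, Cufflinks, DESeq and the mm9 build. How reads were counted (tool, gene annotation, strand, reads with several hits) is not given in the sources used here. No replicates were pooled.

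Genes were filtered and tested with edgeR 4.0.16 in R 4.3.3 (filterByExpr, TMM, robust quasi-likelihood test, 1 fit of all 8 libraries by group, Benjamini-Hochberg adjustment over 17362 genes, threshold 0.05). CPM is a count relative to the TMM-scaled library total. Total counts of 7305595 to 16108081 limit precision. At these depths 3 counts correspond to 0.411 and 0.186 CPM before scaling, which covers counting error only, since amplified reads are not independent molecules. Deposited mm9 coordinates were kept. GENCODE M21 (GRCm38) gave gene type, length, GC content and coding sequence, and RefSeq the start windows. Annotated pseudogenes were matched to the member they are most like with blastn 2.17.0 (at least 80% identity over 50% of the pseudogene).

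Members, lists and tests were chosen with earlier results of these data known. Named are, in each comparison, the 10 called members with the smallest p, the 4 highest and 4 lowest in fold change, the stalk genes and paralog pairs, up to 4 genes of each list, the 3 copies with the most counts and the 5 genes outside the family most like its mean. Some genes that this rule takes are not reported here. Other members named were chosen after their values were seen, as examples. Alternatives were other scalings, DESeq2 1.42.0, voom in limma 3.58.1, other filters, fits of 2 groups, the replicate block, leaving out each library, the 20 most abundant genes or all pseudogenes, an offset for GC content and length, and adding copies to their gene. The scripts were tested on simulated data.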

Additional observations from a re-analysis of the deposited data

Results flagged for a closer look

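In the PR-SET7_LOBE group, 5 of 32 values had 1 library far from the other 3, as a gap divided by the whole range of the group, and chance alone flags about 1 in 20 groups. Rpl10 had 445, 1272, 390 and 519 CPM (gap 0.854 of the range), Rpl17 had 46.8, 135, 39.6 and 30.8 CPM (0.847), and Rpl3 had 199, 396, 192 and 169 CPM (0.871). Rps27 had 4.13, 10.2, 3.99 and 4.55 CPM (0.910). In these 4 genes replicate 2 was the highest. Rpl13a had 574, 220, 150.0 and 159 CPM (0.835), with replicate 1 the highest.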

How the results depend on the processing

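In DEN_WT against WT, the count of 16 lower members was 32 by DESeq2, 47 (with 1 higher) by voom, 43 in a fit of only the 2 groups, 34 with the GC and length offset, 9 without pseudogenes, 7 with total counts only, and 0 with copies added, also with total counts only, where 1 was higher. The share of all genes called lower, 4.54% at first, moved as well, to 7.57% by DESeq2, 17.5% by voom, 16.8% with 2 groups, 7.08% with the offset, 3.94% without pseudogenes, 2.86% with total counts and 4.40% with copies. The 15 higher members of PR-SET7_LOBE against DEN_WT were 35 by DESeq2, 38 by voom, 41 (and 0 lower) with the offset, and 1 with copies added under either scaling, where 4.82% of all genes became 7.91%, 14.7%, 6.89%, 4.65% and, with total counts, 4.22%. Leaving out 1 PR-SET7_LOBE library gave 13 to 36 lower members in DEN_WT against WT, where 3.91% to 11.9% of all genes were lower. In PR-SET7_LOBE against DEN_WT it gave 10 to 26 higher and 1 lower, where 4.04% to 6.93% of all genes were higher. In PR-SET7_LOBE against WT it gave 0 to 3 higher. In both comparisons with DEN_WT, calls fell without a WT or DEN_WT library, which leaves 1 in that group. Family medians of log2 fold change in DEN_WT against WT were -1.69 with the offset, -0.78 with total counts only, -0.52 with copies and 0.068 with both, and -1.37 to -1.09 without 1 library. In PR-SET7_LOBE against DEN_WT they were 1.501 with the offset, and 0.37 with copies and 0.42 with both. In PR-SET7_LOBE against WT they were -0.37 by voom, 0.55 with total counts only and 0.50 with copies as well. Total counts only moved the median of all genes to 0.79 in PR-SET7_LOBE and 0.65 in DEN_WT against WT. Relative to that median the family lay at -0.25 and -1.43, against -0.19 and -1.42 with TMM. The summed CPM of WT was 10826 with total counts only, 12273 with copies as well, 17153 with copies alone, 13969 with upper-quartile scaling, and 13568 to 15570 without 1 library. That of DEN_WT was 8041, 12354 and 11504 in the first 3 settings, and 7111 to 8030 without 1 library. The causes were not tested, except that fewer libraries leave fewer degrees of freedom and that adding copies changes the counts themselves.

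Of the 23 named values that changed sign, 17 lay within 1 of 0 on the log2 scale at first, and 6 did not: in DEN_WT against WT Rpl38 (-3.002), Rpl28 (-2.78), Rpl31 (-2.49), Rpl21 (-1.98) and Rps27l (1.27), and in PR-SET7_LOBE against DEN_WT Rpl38 (3.07). In PR-SET7_LOBE against WT, total counts only gave 0.051 for Rps27l, 0.45 for Rpl3, 0.38 for Rplp0, 0.54 for Rplp1 and 0.63 for Rplp2, and with copies as well 0.068, 0.33, 0.28, 0.43 and 0.63. Rplp1 was 0.012 without the 20 most abundant genes, and 0.093, 0.088 and 0.0877 with the offset, the strict filter and upper-quartile scaling, under which Rplp2 was 0.14, 0.092 and 0.11. Voom gave -0.0922 for Rpl39l and -0.16 for Rpl10. In DEN_WT against WT, the offset gave -0.53 for Rps24, -0.11 for Rpl30, -0.27 for Rps27l and -0.38 for Rpl39, and total counts only gave 0.41 for Rpl10. With copies Rpl38 was 0.28, and with total counts as well Rpl38 was 0.90, Rpl31 0.25, Rpl21 0.16, Rpl28 0.072 and Rpl10 0.53. In PR-SET7_LOBE against DEN_WT, copies gave -0.22 for Rpl38, -0.20 for Rpl37a and -0.23 for Rpl39, with total counts -0.21, -0.0927 and -0.0912. Rpl37a was -0.00952 without a filter, Rpl13a 0.31 with the offset and Rps2 0.024 with upper-quartile scaling. Leaving out 1 library gave, in PR-SET7_LOBE against WT, -0.42 to 0.48 for Rpl10, -0.54 to 0.25 for Rpl3, -0.29 to 2.46 for Rpl39l, -0.43 to 0.067 for Rplp0, -0.40 to 0.30 for Rplp1, -0.21 to 0.15 for Rplp2, -1.18 to 0.15 for Rps27l and -1.18 to 0.12 for Rps29. In DEN_WT against WT it gave -0.46 to 0.26 for Rpl10 and -0.22 to 1.07 for Rpl39, and in PR-SET7_LOBE against DEN_WT -0.27 to 0.50 for Rpl10, -0.72 to 0.14 for Rpl13a, -0.37 to 0.62 for Rpl37a and -0.33 to 0.094 for Rps2.

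The labels do not say that replicate numbers pair the libraries, and deviations of same-numbered libraries correlated at 0.165 and 0.106 between WT and PR-SET7_LOBE, 0.0599 between WT and DEN_WT, and -0.00874 and 0.0200 between PR-SET7_LOBE and DEN_WT. With the replicate block, 35 members were lower in DEN_WT against WT, and 34 were higher in PR-SET7_LOBE against DEN_WT, where 8.04% of all genes were lower and 7.27% higher. The block gave a median of 0.24 in PR-SET7_LOBE against WT, with 0.070 for Rpl3, 0.38 for Rplp0, 0.61 for Rplp1 and 0.025 for Rplp2, and in PR-SET7_LOBE against DEN_WT 0.27 for Rpl13a and -0.14 for Rpl37a.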
